A study of Mus musculus with 240 samples.

Results

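The metabotropic glutamate receptor (mGluR) genes described here were Grm2, Grm3, Grm4, Grm5, Grm7 and Grm8. They were taken by gene name from the deposited count table and joined by gene identifier to the deposited log2 table. They are 6 of the 55414 genes counted, and all 6 were among the 14785 genes tested. RNA-seq was done on punches taken from the prelimbic cortex (PrL), the accumbens core (NAcc) and the central amygdala (CeA). The 48 mice comprised 3 males and 3 females for every founder strain of the Collaborative Cross, of which there are 8. No mouse had been given ethanol, and the question of the study was how naive brains differ between strains that differ in ethanol preference. C57BL/6J (B6) and the wild-derived strain PWK/PhJ (PWK) have a high preference. The low preference strains are the wild-derived CAST/EiJ (CAST) and WSB/EiJ (WSB) and the laboratory strains A/J (AJ), NOD/ShiLtJ (NOD), NZO/HILtJ (NZO) and 129S1/SvImJ (S129). The series' design text spells NOD as NOD/LtJ. The mean of the low preference strains is called Low_Average. All mice came from the Jackson Laboratory, were 8 weeks old by the series' design text (the study's methods give an older age), and were housed in groups by strain, so that strain and cage cannot be told apart. Each group of a strain and region had 6 mice, except the NAcc of B6, which had 5 after the authors left out 1 library.

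Metabotropic glutamate receptors are G protein-coupled receptors that tune the release of glutamate and the response to it, rather than passing the fast synaptic current themselves. Group I receptors, to which the Grm5 product belongs, act through Gq and phospholipase C and sit mostly behind the synapse, whereas group II (Grm2 and Grm3) and group III (Grm4, Grm7 and Grm8) act through Gi/o, lower cyclic AMP and sit mostly on axon terminals. The Grm3 product is also made by astrocytes, and its natural agonists include the peptide N-acetylaspartylglutamate (NAAG). Group II receptors and the Grm5 product have long been studied for their part in drug and alcohol seeking.

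The proximal promoters of the group II genes are shown because this pair, which shares its main ligand, its G proteins and most drugs, differed between regions in unlike ways and each differed in B6 in the results below. Each window runs from 250 bases before the start of transcription to 50 bases after it, 5′ to 3′ on the minus strand, from RefSeq on GRCm38.p6, an older build than the one the reads were aligned to. The Grm2 window is chr9:106656060-106656359 and the Grm3 window is chr5:9725303-9725602. Capitals mark the GC box, GGGCGG on either strand.
Grm2: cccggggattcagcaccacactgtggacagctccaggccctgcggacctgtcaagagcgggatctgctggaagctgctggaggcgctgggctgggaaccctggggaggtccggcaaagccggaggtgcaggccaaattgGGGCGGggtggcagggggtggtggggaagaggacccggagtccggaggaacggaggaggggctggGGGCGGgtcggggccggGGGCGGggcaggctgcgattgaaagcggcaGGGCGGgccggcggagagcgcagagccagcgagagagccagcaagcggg
Grm3: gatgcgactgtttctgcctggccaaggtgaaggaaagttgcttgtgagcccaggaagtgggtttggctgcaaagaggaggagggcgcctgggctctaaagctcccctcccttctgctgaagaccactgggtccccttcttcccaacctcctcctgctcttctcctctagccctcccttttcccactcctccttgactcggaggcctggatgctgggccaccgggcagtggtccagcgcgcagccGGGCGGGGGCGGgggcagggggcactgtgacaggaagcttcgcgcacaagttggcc

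The Grm2 window held 4 GC boxes and 22 CpG at 72.0% GC, and the Grm3 window held 2 abutting GC boxes and 11 CpG at 63.7% GC. Over all 32851 promoter windows of 300 bases, 35.7% held a GC box, and the medians were 7 CpG and 52.7% GC. The table held windows for 4 of the 6 members, and none was used for Grm4 or Grm5. These are letters of the reference genome, with no measure of binding and no variant of any strain.

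The 143 libraries had total counts from 14942820 to 33951616 (median 24456928), and all 6 members had reads in all 240 deposited runs, from 18 counts (Grm8) to 15229 (Grm5). Levels are in CPM, read counts scaled to a common effective library size, and a difference was called when limma's adjusted p (Benjamini-Hochberg) was under 0.05. Marker sums differed between punches. The summed CPM of pallial glutamatergic markers (6 genes) was 1811 to 3316 in the PrL, 28.0 to 2680 in the CeA and 2.67 to 1441 in the NAcc. That of striatal neuron markers (8 genes) was 181 to 2270, 262 to 8882 and 429 to 8747 in the same order. Central amygdala markers (6 genes) summed to 238 to 592 in the CeA, which overlapped the PrL (197 to 394) and the NAcc (181 to 489). By limits on marker sums that were set after seeing the data, 25 libraries stood apart (14 of the CeA, 8 of the NAcc and 3 of the PrL). In the NAcc of PWK, and in the CeA of S129 and of NOD, 3 of 6 libraries stood apart. For B6 in the NAcc it was 2 of 5. Without them, results of these groups rest on fewer mice. Some strain results are given with and without the libraries that stood apart. The region contrasts and most pathway results are given only with them. A value given only with these libraries may still rest on them. In such bulk tissue fewer cells of a type and less RNA per cell cannot be told apart.

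Per kilobase of exon, the makeup of the 6 receptors differed by region. In the PrL, Grm3 was the most abundant at 32.6 ± 4.23 CPM per kb (SD, n = 48), followed by Grm2 at 23.4 ± 5.30 and Grm5 at 22.4 ± 3.36. In the CeA, Grm5 led at 32.3 ± 7.43 (n = 48) and Grm3 followed at 21.4 ± 6.30. In the NAcc, Grm5 led again at 38.9 ± 11.2 (n = 47), beside Grm3 at 32.3 ± 9.35. Grm2 made up 23.1% of the 6 receptors' summed CPM per kb in the PrL and 2.06% in the NAcc (means over mice). Grm4 moved the other way, with 5.48 ± 2.03 CPM per kb in the PrL and 16.4 ± 5.41 in the NAcc. Grm7 held between 12.6 ± 1.53 (PrL) and 14.2 ± 1.53 (CeA), and Grm8 was the scarcest in each region, at 3.99 ± 0.799 (PrL), 3.31 ± 0.887 (CeA) and 1.31 ± 0.660 (NAcc). The sum of the 6 genes was 100.4 CPM per kb in the PrL, 87.9 in the CeA and 103.8 in the NAcc. The order of genes depends on the exon lengths, which join all annotated exons of a gene (3.05 kb for Grm3, 10.2 kb for Grm5). In mean CPM, Grm5 led in the PrL too (229, against 114 for Grm2 and 99.4 for Grm3). Nor was Grm8 the scarcest in CPM in the PrL (39.5, against 32.8 for Grm4) or the NAcc (13.0, against 9.13 for Grm2).

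**Figure D1:**
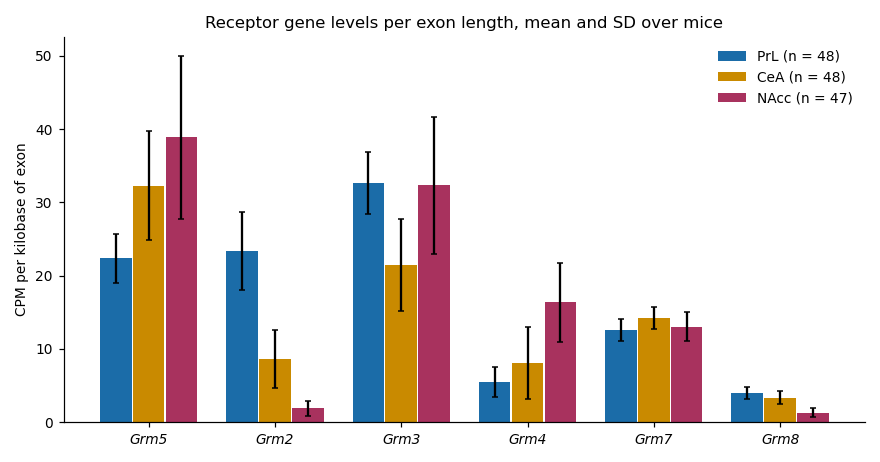
Level of each receptor gene per kilobase of exon (CPM per kb) in the 3 regions, as bars of the mean with the SD over mice (48 in the PrL and CeA, 47 in the NAcc). Grm2 stands at 23.4 in the PrL and 1.87 in the NAcc, Grm4 runs from 5.48 to 16.4 in the opposite direction, and Grm7 stays between 12.6 and 14.2.

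The contrasts of regions, averaged over the 8 strains, were called for 16 of 18 pairs of gene and contrast, in a study where 75.1% of all such pairs were called. Grm2 ranged from 56.2 to 171 CPM (median 114) in the PrL, from 7.79 to 79.9 (46.5) in the CeA and from 3.11 to 26.3 (8.79) in the NAcc, with no overlap between the PrL and NAcc. It was 13.9-fold higher in the PrL than in the NAcc (log2 fold change 3.79 ± 0.165 SE, adjusted p = 7.94e-44), and higher in 47 of 47 mice. It was also higher in the PrL than in the CeA (1.62, adjusted p = 1.31e-26, 48 of 48 mice) and higher in the CeA than in the NAcc (2.17, adjusted p = 7.83e-24, 45 of 47 mice). Pallial marker sums differ between these regions in the same order. Log2 values of the pallial, striatal and oligodendrocyte marker sums were then used as covariates, a choice made after seeing the data. With them the differences became 0.90 between PrL and NAcc (adjusted p = 0.00775), 0.63 between PrL and CeA and 0.27 between CeA and NAcc (adjusted p = 0.348). Pallial sums did not overlap between the PrL (1811 to 3316 CPM) and the NAcc (2.67 to 1441). The PrL minus NAcc values of this fit therefore rest on extrapolation, and a difference at equal sums was not tested. When the variance in log2 Grm2 was divided, 82.9% went with region, a percentile of 98.9 among the genes tested, and 3.06% with strain, a percentile of 3.37. The medians over all genes were 18.9% for region and 21.6% for strain.

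Grm8 had the same order of regions, with a lower median CPM than Grm2 in the PrL and CeA and a higher one in the NAcc. Its medians were 40.6 CPM in the PrL, 33.4 in the CeA and 12.0 in the NAcc, and the ranges overlapped (14.8 to 53.9, 13.4 to 48.5 and 1.12 to 31.6). The log2 difference was 1.78 between PrL and NAcc (adjusted p = 4.97e-32, 46 of 47 mice), 1.49 between CeA and NAcc (adjusted p = 5.80e-26) and 0.29 between PrL and CeA (adjusted p = 0.000925, 37 of 48 mice). The strain means of Grm2 and Grm8 also moved alike: over the 24 means of strain and region, with the mean of each region taken off, their Pearson's r was 0.72 (a description over points that share libraries and punch content).

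Grm4 and Grm5 were lowest in the PrL and highest in the NAcc. Grm4 had medians of 29.2, 38.3 and 98.4 CPM in the PrL, CeA and NAcc, with ranges of 21.6 to 77.4, 19.1 to 135 and 40.4 to 165. The NAcc exceeded the PrL in 46 of 47 mice (log2 difference PrL minus NAcc -1.57, adjusted p = 3.27e-29). For Grm5 the medians were 228, 325 and 396 CPM, and the log2 difference was -0.76 between PrL and NAcc (adjusted p = 1.72e-25, lower in 42 of 47 mice), -0.51 between PrL and CeA (adjusted p = 1.89e-15) and -0.25 between CeA and NAcc (adjusted p = 3.84e-05). Striatal marker sums were likewise lowest in the PrL. With the marker sums as covariates the PrL minus NAcc difference of Grm4 became 0.39 and its PrL minus CeA difference 0.61, so the direction turned. Both turned values were called, with adjusted p no larger than 0.00903 and 0.000839. The direction also turned for Grm5 between CeA and NAcc (0.04, adjusted p = 0.705) and for Grm8 between PrL and CeA (-0.16, adjusted p = 0.261). The difference of Grm5 between PrL and NAcc was -0.21 (adjusted p = 0.0603). As for Grm2, the PrL minus NAcc values of Grm4 and Grm5 with covariates rest on extrapolation, because pallial sums of these regions did not overlap.

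Grm3 was level between PrL and NAcc (medians 100.1 and 94.6 CPM, log2 difference 0.05, adjusted p = 0.464) and lower in the CeA (median 63.5, PrL minus CeA 0.65 with adjusted p = 2.97e-18 and CeA minus NAcc -0.60 with adjusted p = 3.35e-16). It was lower in the CeA than in the NAcc in 45 of 47 mice, and this difference was -0.11 with marker sums as covariates (adjusted p = 0.331). Grm7, the most widely expressed group III receptor gene, differed least, with medians of 74.5, 82.2 and 74.2 CPM in PrL, CeA and NAcc and a CeA excess of 0.17 over the PrL (adjusted p = 2.13e-06, 38 of 48 mice). All 18 contrasts had the same sign in each of the 3 sequencing trays, other than that of Grm3 between PrL and NAcc, at 0.11, 0.08 and -0.03.

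Between strains, calls were few in the CeA and most of them in the PrL fell on Grm2 and Grm4. Of 168 pairs of gene and strain contrast in each region, 36 were called in the PrL (21.4%, against 33.1% over all genes), 31 in the NAcc (18.5%, against 26%) and 17 in the CeA (10.1%, against 28.9%). The median absolute log2 fold change of members and of all genes was 0.155 and 0.150 in the PrL, 0.287 and 0.174 in the NAcc, and 0.217 and 0.175 in the CeA. The overall test of strain was called in 12 of 18 pairs of gene and region (80.3% over all genes). Those not called were Grm2 and Grm8 in the CeA, Grm7 in the CeA and PrL, Grm2 in the NAcc and Grm8 in the PrL.

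**Figure D2:**
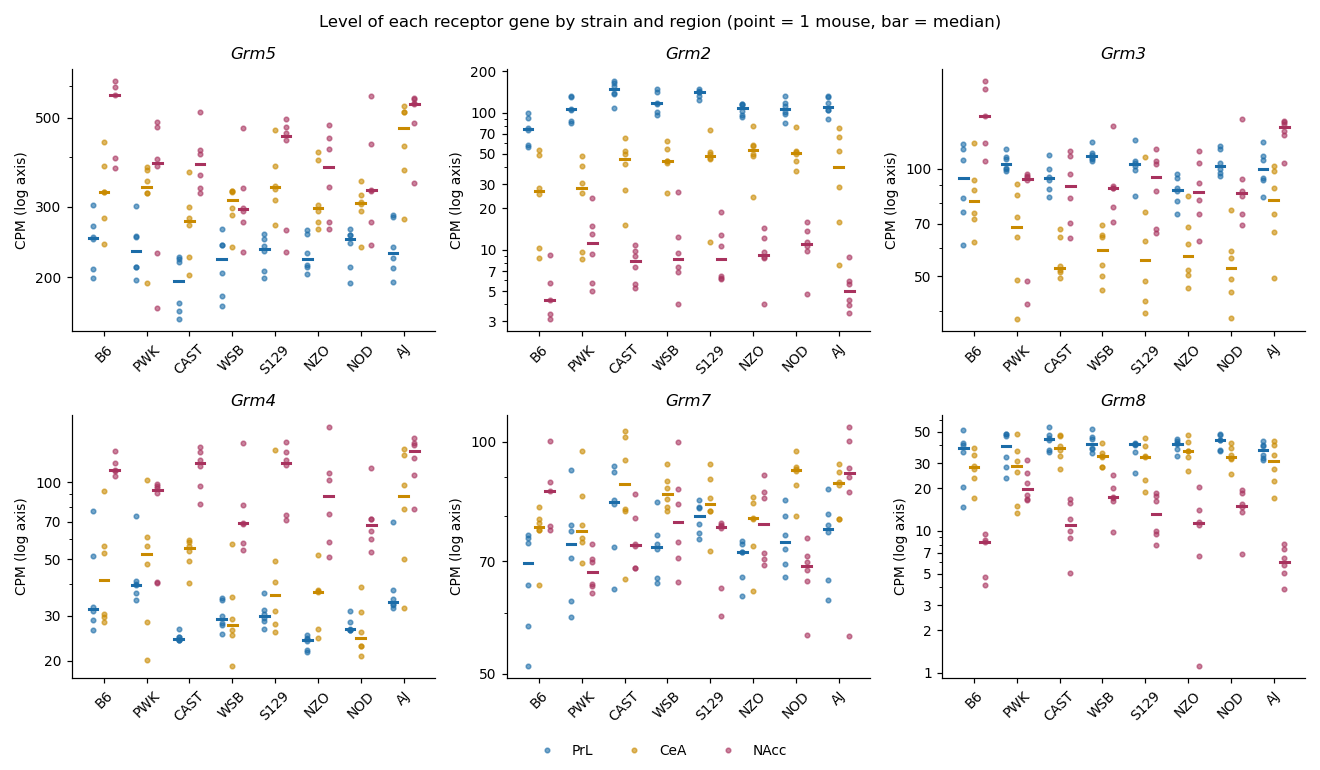
CPM (log axes) of each receptor gene by strain, with 1 point for each mouse and a bar at the median, coloured by region (PrL, CeA, NAcc). B6 lies lowest for Grm2 in the PrL at a median of 76.5, PWK lies highest for Grm8 in the NAcc at 19.8, and AJ lies highest for Grm4 and Grm5 in the CeA at 88.2 and 470.

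Grm5 encodes the main group I receptor of striatum and cortex, coupled to phospholipase C. In the CeA its medians ran from 276 CPM in CAST to 470 in AJ, and the other 6 strains lay between 298 and 337. AJ ranged from 279 to 533 CPM and CAST from 203 to 366, so the groups overlapped, with 5 of 6 AJ mice above the highest CAST mouse. AJ was higher than 6 of the other 7 strains (mean log2 fold change 0.47), and the exception was S129 (adjusted p = 0.0778). The CAST-AJ contrast was -0.67 (adjusted p = 0.000141). The striatal marker sums of those AJ punches differed, and their part in the result was not tested: mice 5, 13, 29 and 37 had striatal marker sums of 4759 to 8882 and Grm5 at 424 to 533, and mice 21 and 45 had sums of 486 and 1138 and Grm5 at 279 and 370. Of the 6 contrasts, 3 were called without the libraries that stood apart and 4 with marker sums as covariates.

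In the PrL, Grm5 had medians from 196 CPM in CAST to 251 in B6. CAST (157 to 225 CPM) was lower than 6 of the other 7 strains (mean -0.28), with WSB as the exception (adjusted p = 0.166), and the B6-CAST contrast was 0.36 (adjusted p = 0.00151). In the NAcc the 5 B6 mice had 374, 396, 568, 595 and 619 CPM, and AJ had 344 to 559 with a median of 541, whereas WSB had the lowest median at 296 (232 to 472). B6 and AJ exceeded WSB (B6 minus WSB 0.65, WSB minus AJ -0.68, adjusted p = 0.0258 and 0.0136), and AJ exceeded PWK (PWK minus AJ -0.59, adjusted p = 0.0341). These were the only 3 contrasts of Grm5 called in the NAcc. None of the 3 was called when the library left out by the authors was put back (B6 minus WSB 0.31, adjusted p = 0.447), and PWK minus AJ was -0.24 without the libraries that stood apart (adjusted p = 0.507).

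Grm2, whose product is a presynaptic brake on glutamate release, carried the clearest strain difference of the family. In the PrL, the 6 B6 mice had 56.2, 57.9, 75.2, 77.8, 91.4 and 98.9 CPM. The medians of the other strains were 105 (PWK), 107 (NOD), 108 (NZO), 111 (AJ), 117 (WSB), 142 (S129) and 148 (CAST). The 42 other mice ranged from 84.2 to 171 CPM, and 8 of them lay below the highest B6 mouse, so the lowest 4 B6 mice lay below every other mouse. B6 was lower than each of the other 7 strains, with log2 fold changes from -0.95 (CAST, adjusted p = 5.20e-08) to -0.50 (PWK and NZO, both adjusted p = 0.00170) and a mean of -0.66, or 36.5% less. Grm2 was therefore a down-expressed unique DEG of B6 in the PrL (a gene called against all 7 strains in 1 direction), as were 2.89% of all genes in either direction. It was the only unique DEG among the 6 members in 8 strains and 3 regions (2.88% of all genes by strain and region).

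At the other end, CAST had more Grm2 in the PrL than 5 of the other 7 strains (107 to 171 CPM, mean log2 fold change 0.43) and S129 more than 4 (122 to 148). CAST and S129 themselves were neighbours in the order and did not differ beyond their spread, and of the 7 steps between neighbours from CAST down to B6, only that between PWK and B6 was called. B6 also had the lowest median in the CeA (26.9 CPM, 8.76 to 53.3) and in the NAcc (4.32 CPM, 3.11 to 9.22), but no contrast of Grm2 was called there (smallest adjusted p 0.0770 and 0.0507). The B6 ranges overlapped those of all other strains in both regions.

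**Figure D3:**
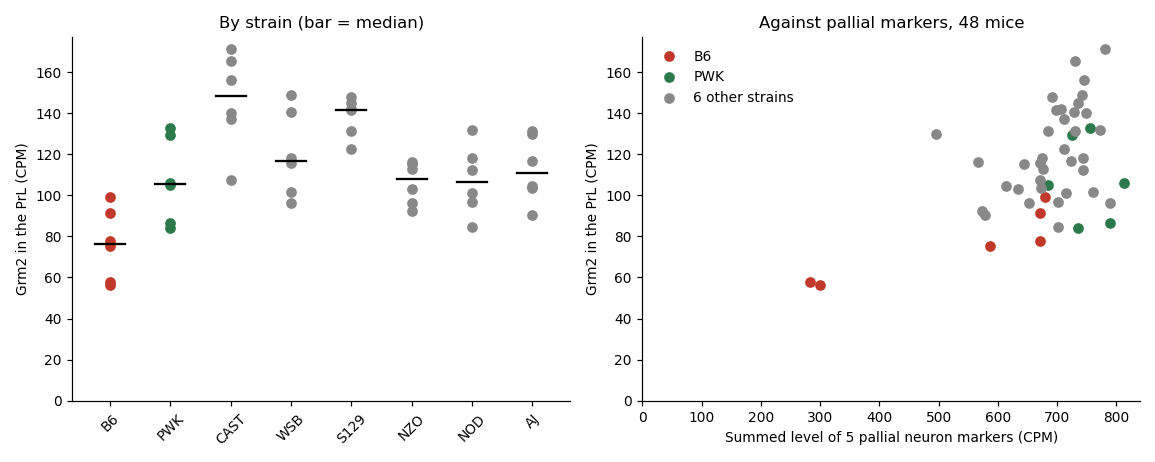
Grm2 in the PrL (CPM) against the summed CPM of 5 tested pallial glutamatergic markers, with 1 point for each of the 48 mice and B6 and PWK in their own colours. The B6 mice at 56.2 and 57.9 CPM have marker sums of 300.4 and 283, and the other 4 B6 mice lie at 75.2 to 98.9 CPM with sums of 587 to 680.

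The cortical markers moved with this difference. Of the 5 pallial markers tested (Slc17a7 was not among the genes kept), 5 were lower in B6 than in Low_Average in the PrL (median log2 fold change -0.50, 19.3% of all genes lower). B6 mice 25 and 33 had sums of these markers of 283 and 300.4 CPM, striatal sums of 590.5 and 422, and Grm2 at 57.9 and 56.2, whereas the other 4 B6 mice had sums of 587 to 680 and Grm2 at 75.2 to 98.9. The medians of the marker sum in other strains were 639 to 745. Without the libraries that stood apart, of which mouse 25 was 1 and mouse 33 was not, B6 against Low_Average was -0.59 (adjusted p = 6.12e-06). With marker sums as covariates it was -0.48 (adjusted p = 5.28e-07), where B6 was still lower than all 7 strains. The limits and the covariates used the pallial sum of 6 genes, which includes Slc17a7, and not the sum of these 5. Whether they account for the lower level of these 5 markers was not tested.

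Grm3, the group II receptor gene expressed in glia as well as neurons, was high in B6 in the NAcc. The 5 B6 mice had 105, 118, 140.2, 167 and 176 CPM, and AJ had 104 to 136 with a median of 130.4. The other 6 strains had medians from 85.3 CPM up, all of them below the lowest B6 mouse. PWK (41.7 to 96.8 CPM) did not overlap B6, and the ranges of the other 5 did. B6 exceeded 6 of the other 7 strains, from 0.62 (WSB, adjusted p = 0.0228) to 0.89 (PWK, adjusted p = 0.000978), and not AJ (adjusted p = 0.717). Of these B6 libraries 2, of mice 25 and 33, stood apart by their pallial sums, and without such libraries B6 still exceeded the same 6 strains, from 0.66 (PWK, adjusted p = 0.0407) to 0.80 (NZO, adjusted p = 0.00517). The striatal marker sums of the B6 punches were 4169 to 8747 CPM, above the median of the region (4154), and with marker sums as covariates B6 exceeded 3 of the 6 strains, with 0.26 over PWK (adjusted p = 0.162). AJ exceeded PWK, CAST, S129 and NZO, although without the libraries that stood apart PWK minus AJ was -0.38 (adjusted p = 0.202) and S129 minus AJ -0.39 (adjusted p = 0.125). In the CeA, B6 (62.3 to 118 CPM, median 81.0) exceeded CAST, WSB and NOD, by 0.53 to 0.65, and AJ (49.4 to 102, median 81.4) exceeded NOD. With marker sums as covariates the direction turned for B6 minus WSB (-0.14), B6 minus NOD (-0.02) and NOD minus AJ (0.11), none of them called. In the PrL the strains were closer, with medians of 87.3 (NZO) to 108 CPM (WSB), and the 4 called contrasts were WSB over NZO and B6, and PWK and NOD over NZO. None of these 4 was called with marker sums as covariates, and B6 minus WSB was -0.15 and not called without the libraries that stood apart.

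Grm4 encodes a group III receptor of terminals, known in the striatum from striatopallidal axons. In the PrL, PWK had the highest median, 39.7 CPM, and its 6 mice (34.6 to 73.4) all lay above the median of the other mice, 28.3. NZO (21.6 to 25.2) and CAST (24.0 to 26.5) were lowest and did not overlap PWK. PWK exceeded 5 of the other 7 strains, by 0.50 (S129, adjusted p = 0.0309) to 0.88 (NZO, adjusted p = 0.000246), and did not differ from AJ or B6 beyond the spread. PWK mouse 40, with 73.4 CPM, had a striatal marker sum of 2270, and the other 5 PWK mice had 34.6 to 41.2 CPM with sums of 181 to 271. AJ mouse 45 had 69.8 CPM with a sum of 212, and B6 mice 25 and 33 had 77.4 and 51.2 CPM with sums of 590.5 and 422.

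In the CeA, the medians of Grm4 ran from 24.4 CPM in NOD to 88.2 in AJ. AJ (32.0 to 135 CPM) and NOD (20.8 to 38.9) overlapped, and 5 of 6 AJ mice lay above the highest NOD mouse. AJ exceeded NOD (NOD minus AJ -1.58 on the log2 scale, adjusted p = 0.000563), WSB (WSB minus AJ -1.38, adjusted p = 0.00236) and NZO (NZO minus AJ -1.16, adjusted p = 0.00950). Grm4 moved with the striatal marker sums here as Grm5 did, with 78.8 to 135 CPM in AJ mice 5, 13, 29 and 37 and 32.0 and 50.1 in mice 21 and 45, and with 134 CPM in S129 mouse 46, whose striatal sum was 5849. Without the libraries that stood apart the 3 contrasts were -1.04, -1.02 and -0.68 (adjusted p = 0.126, 0.0566 and 0.244), and with marker sums as covariates they were -0.21, -0.27 and -0.24 (adjusted p = 0.290, 0.151 and 0.176). In the NAcc, AJ (78.9 to 149 CPM, median 132) exceeded PWK, WSB and NOD, and NOD (median 68.1) lay below B6 and CAST as well. Without the libraries that stood apart PWK minus AJ was -0.30 (adjusted p = 0.502), and with marker sums as covariates CAST minus NOD was -0.06 (adjusted p = 0.684).

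Grm7, a widespread group III receptor gene of low-affinity presynaptic receptors, had few strain differences. The highest strain median was 1.20 times the lowest in the PrL and CeA, and 1.35 times in the NAcc. NOD had the highest median in the CeA (91.9 CPM, 80.2 to 97.2) and the next to lowest in the NAcc (69.0, 56.2 to 75.0). By limma's F test over all strains, Grm7 was not called in the CeA (adjusted p = 0.0530) or the PrL (adjusted p = 0.0872). Of 84 contrasts 8 were called: in the CeA NOD over B6 and NZO, in the NAcc B6 and AJ each over PWK and NOD, and in the PrL CAST and S129 over B6. The largest was that of AJ over NOD in the NAcc (NOD minus AJ -0.36, adjusted p = 0.00977). Without the libraries that stood apart this was still called, but neither B6 (adjusted p = 0.0742) nor AJ was called over PWK, nor S129 over B6 in the PrL (adjusted p = 0.0743).

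Grm8, a group III gene of scarce transcripts, differed between strains in the NAcc, where it was lowest. The 6 PWK mice had 16.4, 16.9, 17.8, 21.9, 25.7 and 31.6 CPM (median 19.8), all above the median of the other mice, 10.0. The 5 B6 mice had 4.16, 4.73, 8.36, 8.64 and 9.53 CPM, and AJ ranged from 3.92 to 8.13 (median 6.07), so neither overlapped PWK. WSB (9.81 to 24.7, median 17.3) was next to PWK. PWK exceeded AJ by 1.82 (adjusted p = 0.000197), B6 (B6 minus PWK -1.72, adjusted p = 0.000840), NZO by 1.24 (adjusted p = 0.00662) and CAST by 0.95 (adjusted p = 0.0286). The contrast with CAST was 0.81 without the libraries that stood apart (adjusted p = 0.134), and the other 3 were called there too. Of the PWK mice, 24 and 40 had striatal marker sums of 429 and 631 and the highest Grm8, 25.7 and 31.6 CPM, and the other 4 had sums of 3942 to 4273 with 16.4 to 21.9 CPM. NZO mouse 26, at 1.12 CPM, had a striatal sum of 7198. No contrast of Grm8 was called in the CeA or PrL.

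The comparison of the high preference strains with Low_Average asks which of these receptors set each of them apart from the low preference mean. For B6, 6 of 18 pairs of gene and region were called (36.9% of all genes), and for PWK 2 of 18 (41.6%). No member was called in both strains in the same region, other than Grm4 in the PrL, which was higher in both. High Grm4 in the PrL was not particular to these 2 strains. AJ, a low preference strain, had a median of 34.1 CPM there, and B6 had 31.8. In the strain contrasts of Grm4 in the PrL, AJ exceeded 3 strains and B6 exceeded 2. B6 had less Grm2 in the PrL (-0.68 ± 0.0964 SE, 95% interval -0.88 to -0.49, adjusted p = 1.59e-07), and PWK differed from Low_Average there by -0.18 (interval -0.38 to 0.01, adjusted p = 0.122). Within the 3 trays the B6 difference was -0.69, -0.67 and -0.81.

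Grm3 was higher in B6 in the NAcc (0.56 ± 0.164 SE, interval 0.23 to 0.89, adjusted p = 0.00735, and 0.48, 0.26 and 0.70 within trays) and in the CeA (0.47, interval 0.17 to 0.77, adjusted p = 0.0107). The values within trays rest on few B6 mice, and in tray 2 on mouse 41 alone, because the NAcc library left out was of that tray. With marker sums as covariates the NAcc difference was 0.29 (adjusted p = 0.0124) and the CeA difference 0.05 (adjusted p = 0.698). In PWK, Grm3 differed by -0.34 in the NAcc (interval -0.64 to -0.03, adjusted p = 0.0754) and by 0.10 in the CeA (adjusted p = 0.641). Grm4 was higher in B6 in the PrL (0.39, interval 0.12 to 0.67, adjusted p = 0.0178), but by 0.09, 0.53 and 0.75 within trays, and by 0.19 without the libraries that stood apart (adjusted p = 0.135) and 0.15 with sample quality weights (adjusted p = 0.224). Grm7 was slightly lower in B6 in the CeA (-0.16, adjusted p = 0.0459) and in the PrL (-0.19, adjusted p = 0.0280), but neither call was kept in all settings: without the libraries that stood apart the PrL value was -0.14 (adjusted p = 0.135), and with marker sums as covariates the values were 0.02 in the CeA and -0.04 in the PrL.

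PWK had more Grm8 in the NAcc (0.95 ± 0.238 SE, interval 0.47 to 1.43, adjusted p = 0.00177, and 0.85, 1.18 and 0.80 within trays). The difference was 0.86 without the libraries that stood apart (adjusted p = 0.0440) and 0.88 with marker sums as covariates (adjusted p = 0.000811). The value of 0.86 rests on fewer PWK mice, because 3 of the 6 PWK libraries of the NAcc stood apart. In B6, Grm8 differed from Low_Average in the NAcc by -0.78 (interval -1.47 to -0.08, adjusted p = 0.0761). PWK also had more Grm4 in the PrL (0.59 ± 0.137 SE, interval 0.31 to 0.86, adjusted p = 0.000555, and 0.88, 0.40 and 0.45 within trays), with 0.43 without the libraries that stood apart (adjusted p = 0.000702) and 0.65 with marker sums as covariates (adjusted p = 3.71e-07). Grm5 was called in neither strain in any region, with differences from -0.19 (PWK, NAcc) to 0.37 (B6, NAcc).

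**Figure D4:**
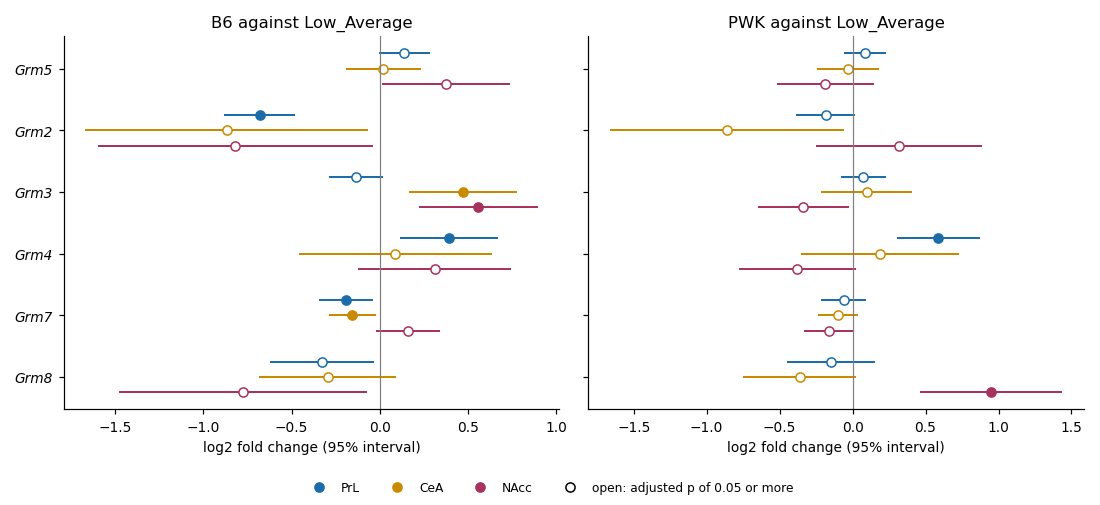
Log2 fold change of B6 and of PWK against Low_Average for each receptor gene in each region, with 95% intervals. The interval of Grm2 in B6 in the PrL lies from -0.88 to -0.49 and that of Grm8 in PWK in the NAcc from 0.47 to 1.43, and most other intervals include or come near 0.

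Strain differences of 4 members depended on the region (34.6% of all genes in the test of the interaction of strain and region). These were Grm8 (adjusted p = 0.00683), Grm7 (0.0103), Grm3 (0.0115) and Grm4 (0.0456), by limma's F test, and neither Grm2 (0.425) nor Grm5 (0.139) was called. Only 2 members were called with the 144 libraries, and only 2 without the libraries that stood apart. Over the other settings the count reached 6, so that Grm2 and Grm5 were called in at least 1 of them. For Grm8 the PrL minus NAcc difference ran from 0.79 in PWK to 2.62 in AJ. For Grm3 it ran from -0.62 in B6 to 0.49 in PWK, for Grm4 from -2.19 in CAST to -0.75 in PWK, and for Grm7 from -0.38 in B6 to 0.14 in NOD. Grm2 kept its order of regions in all 8 strains, with PrL minus NAcc from 3.35 (PWK) to 4.45 (AJ). Males and females did not differ by the test for any member in any region (0 of 18 with limma, 0 of 18 at an unadjusted p under 0.05, and 0 with edgeR and DESeq2, against 0.101% of all genes), and the smallest unadjusted p of limma was 0.0534.

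A list of 47 genes of the mGluR pathway gave the surroundings of the receptors, of which 41 were tested. In B6, 5 were higher and 10 lower than Low_Average in the PrL (18.2% and 19.3% of all genes), 7 and 12 in the CeA (22.3% and 18.8%), and 7 and 10 in the NAcc (17.3% and 14.9%). In PWK, 3 were higher and 5 lower in the PrL (23.9% and 23.2%), 4 and 8 in the CeA (20.1% and 19.1%), and 7 and 2 in the NAcc (20% and 18.7%). The 10 tested effectors include phospholipase C, adenylyl cyclase and potassium channel genes. Of these, 4 were lower and 0 higher in B6 in the PrL (19.3% and 18.2% of all genes). In the CeA 2 were higher and 3 lower in B6, and in the NAcc 2 and 1. Of the 13 tested regulators and scaffolds, 5 were lower and 0 higher in B6 in the CeA (18.8% and 22.3% of all genes). In the PrL 1 was higher and 4 lower in B6, and in the NAcc 3 and 4. Of the 10 tested genes of ligand supply and clearance, 3 were higher and 1 lower in B6 in the PrL. The counts were 4 and 1 in the CeA and 1 and 2 in the NAcc.

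Between regions most of the list differed, as did most genes. From NAcc to PrL 25 of the 41 were higher and 9 lower (82.4% of all genes called in either direction), from CeA to PrL 22 and 12 (73.9%) and from NAcc to CeA 24 and 8 (69.1%). Of the effectors 9 of 10 were higher in the PrL than in the NAcc and 1 lower, among them the potassium channel subunit genes Kcnj3 (log2 difference 2.35, adjusted p = 1.62e-53) and Kcnj9 (1.80, adjusted p = 2.02e-57). Of the 10 genes of ligand supply and clearance, 2 were higher and 5 lower, among the latter Folh1, which encodes a peptidase of NAAG (-1.01, adjusted p = 2.72e-23). The part of punch content in these values was not tested.

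The largest differences of the list in PWK lay in the peptidases of NAAG, the peptide agonist of the Grm3 receptor. Folh1, which encodes glutamate carboxypeptidase II, had 17.8 to 27.3 CPM (median 20.1) in PWK in the PrL, and all other mice had 2.75 to 11.4 CPM, with no overlap. It did not overlap in the CeA either (34.4 to 46.0 against 3.94 to 28.3 CPM), and in the NAcc PWK had 25.2 to 41.7 CPM (median 37.2) against 4.62 to 37.8. PWK exceeded Low_Average by 1.77 in the PrL (adjusted p = 4.87e-22), 1.69 in the CeA (adjusted p = 1.35e-17) and 1.45 in the NAcc (adjusted p = 1.77e-10).

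Naalad2, which encodes a related peptidase, was lower in PWK in the CeA (-1.57, adjusted p = 4.37e-06) and in the NAcc (-1.65, adjusted p = 1.02e-08), at 0.323 to 0.663 and 0.336 to 0.779 CPM. CAST was low as well (medians 0.627 and 0.605 CPM), and the ranges of PWK overlapped those of other strains. Naalad2 was scarce in every strain, with 0.422 to 3.36 CPM in all other mice in the CeA and 0.314 to 2.98 in the NAcc. It was not among the genes tested in the setting that required a mean CPM of at least 5. In B6, Naalad2 was higher in the CeA (0.87, adjusted p = 0.000164, and 0.44 with adjusted p = 0.113 with marker sums as covariates) and Folh1 lower in the PrL (-0.50, adjusted p = 0.000291). The receptor itself, Grm3, was called in B6 in the NAcc and CeA and in PWK in no region.

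**Figure D5:**
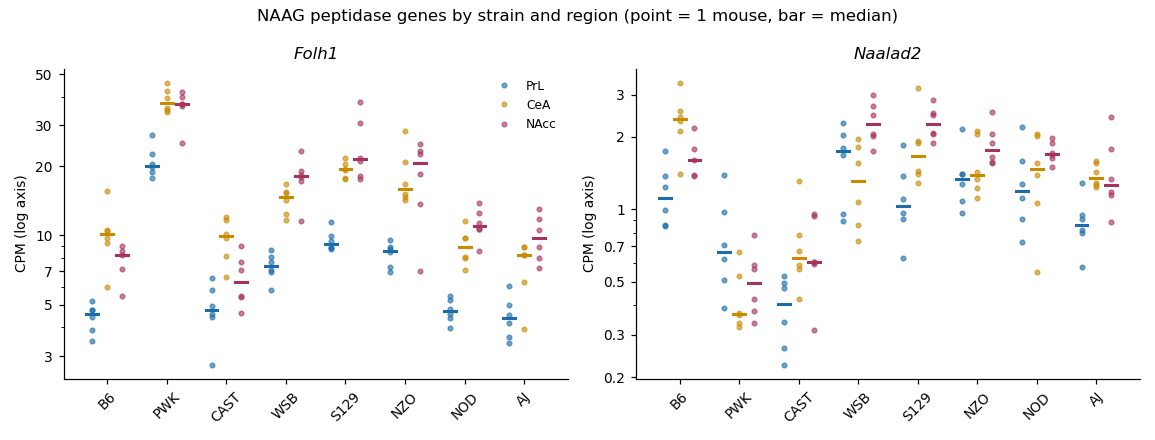
CPM (log axes) of the NAAG peptidase genes Folh1 and Naalad2 by strain, with 1 point for each mouse and a bar at the median, coloured by region. PWK lies above all other mice for Folh1 in the PrL (17.8 to 27.3) and CeA (34.4 to 46.0), and PWK and CAST lie lowest for Naalad2 in the CeA and NAcc.

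Other pathway genes with large differences were Slc17a8, a vesicular glutamate transporter gene, and Kcnj6, a potassium channel subunit gene. Slc17a8 was higher in PWK in the PrL and CeA (0.82 and 1.39, adjusted p = 8.34e-08 and 0.00109) and in B6 in the CeA (1.53, adjusted p = 0.000316). Over the other settings the CeA values were as low as 0.89 in PWK and 0.61 in B6, and both stayed called. Kcnj6 was higher in PWK in the PrL (0.58, adjusted p = 2.14e-07) and in the NAcc (1.26, adjusted p = 0.000514), where it was 0.80 without the libraries that stood apart (adjusted p = 0.0796). Slc7a11, the cystine-glutamate exchanger gene, was higher in B6 in the CeA (0.64, adjusted p = 3.03e-07). Rgs4, whose product turns off Gi/o and Gq signals, was lower in B6 in the PrL (-0.63, adjusted p = 1.06e-05) and higher in the NAcc (1.08, adjusted p = 0.00154), where it was 0.24 with marker sums as covariates (adjusted p = 0.280). Itpr1 was lower in B6 in the PrL (-0.41, adjusted p = 8.46e-05), and Adcy8 and Elfn1 were lower in the NAcc (-1.20 and -1.01, adjusted p = 0.0229 and 0.0422). Neither of the last 2 was called without B6 mouse 9, 17, 33 or 41, with adjusted p of 0.0510 to 0.0903 for Adcy8 and 0.0882 to 0.119 for Elfn1.

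Genes whose strain means were most like those of a member, by Pearson's r over the 24 means of strain and region after the mean of each region was taken off, are given as a description. Trpc5 (0.89) followed A330084C13Rik (0.91) for Grm2, and Dennd11 (0.92) and Cdk19 (0.90) were close to Grm3. Drd2 (0.88) and Gpr6 (0.87), both known from striatopallidal neurons, followed Them6 (0.89) for Grm4. Actn1 (0.94), Mapkap1 (0.93) and Lrrc20 (0.92) were closest to Grm5, and Usp6nl (0.86), Myl6b (0.85) and Oprl1 (0.85) to Grm8. Grm7 had the weakest neighbours, Kash5, Mlip and Kcnh3, each at 0.73. Among the members, Grm5 went with Grm3 (0.73) and against Grm8 (-0.74), and Grm2 went against Grm3 (-0.70).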

How the data were processed

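Strain, sex, region, mouse and tray (the study's batch) were read from the sample labels, and all 240 deposited columns were mapped. To make the counts, the authors aligned the reads (poly(A) RNA, stranded kit) by STAR 2.7.3a against 1 reference genome (GRCm39, Ensembl annotation) for all strains, and counted them per gene without normalization. Variants of a strain can therefore change how many of its reads align, which was not tested. To make the deposited log2 values, the authors kept genes with a mean CPM of at least 1 and no count above 50000, left out 1 library and scaled by TMM, edgeR's trimmed mean of M-values. The deposited log2 values were matched to within 5e-06 by log2 CPM computed here from the counts, and the same 143 libraries and 14785 genes were used. The 96 libraries sequenced again gave a median absolute log2 difference between runs of 0.0211 (Grm5) to 0.0652 (Grm8).

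Each region was fitted with limma 3.58.1 and edgeR 4.0.16 in R 4.3.3: voom (prior count 0.5) on the counts with TMM factors, with strain, sex and tray, and limma's moderated test at an adjusted p of 0.05. The 28 strain contrasts of a region were adjusted together over all genes, and so were the contrasts of B6 and PWK with Low_Average. Regions and the interaction of strain and region were fitted over all libraries. Strain contrasts had a median SE (log2) of 0.0865 (PrL), 0.116 (NAcc) and 0.11 (CeA). Mice are the replicates. Exon lengths, the union of all annotated exons of a gene, came from GENCODE M21, joined by gene identifier.

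The 6 members and the pathway and marker lists were chosen with earlier results of these data known. All members are named. Of the pathway list, the 3 called genes with the largest change are named for each of B6 and PWK and each region, and the 3 genes most alike for each member, except that results of some genes are not reported here. The labels give the same mouse number to its 3 regions, so regions are paired by mouse. Residuals of that fit correlated, as a median over genes, by 0.0557 for CeA with NAcc, 0.0301 for CeA with PrL and -0.00155 for NAcc with PrL of a mouse, against 0.00342, 0.00376 and -0.000772 between different mice. The scripts were tested on simulated counts. Other settings tried were DESeq2 1.42.0, the quasi-likelihood test of edgeR, other normalizations, filters, adjustments and runs, quality weights, no tray term, 144 libraries, the mouse as a block and each B6 mouse of the NAcc left out, and, chosen after seeing the data, marker sums as covariates and leaving out the libraries that stood apart. Figures were drawn with matplotlib 3.10.9.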

Additional observations from a re-analysis of the deposited data

Results flagged for a closer look

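In 12 of 144 groups of a member, strain and region, 1 mouse lay far from its group by Dixon's test, and chance gives about 1 in 20 groups. For Grm2, S129 mouse 46 had 11.3 CPM in the CeA (the next lowest had 46.2). For Grm3 in the NAcc, WSB mouse 19 had 131 CPM (next 89.2) and AJ mouse 21 had 104 (next 124). For Grm4 in the PrL, CAST mouse 28 had 26.5 CPM (next 24.8), AJ mouse 45 had 69.8 (next 37.8) and PWK mouse 40 had 73.4 (next 41.2). For Grm5, AJ mouse 21 had 345 CPM in the NAcc (next 484) and PWK mouse 24 had 194 in the CeA (next 324). For Grm7, B6 mouse 1 had 65.1 CPM in the CeA (next 76.7) and AJ mouse 21 had 55.9 in the NAcc (next 86.2). For Grm8, S129 mouse 46 had 25.7 CPM in the PrL (next 36.1) and NOD mouse 47 had 6.82 in the NAcc (next 13.6).

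The AJ library of mouse 21 in the NAcc was low for Grm3, Grm5 and Grm7 together, and it had an oligodendrocyte marker sum of 18581 CPM and a striatal sum of 2565. The S129 mouse 46 had a striatal sum of 5849 in the CeA. The part of tissue content in these values was not tested.

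The effect of strain differed between regions, by the test of the interaction, for Grm8 (adjusted p = 0.00683), Grm7 (0.0103), Grm3 (0.0115) and Grm4 (0.0456). Fewer members were called in some other settings, and all 6 in at least 1.

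The library left out by the authors, the NAcc of B6 mouse 1, held 14.8 CPM of Grm2, 85.1 of Grm3, 28.1 of Grm4, 114 of Grm5, 43.0 of Grm7 and 14.4 of Grm8. The other 5 B6 mice had 3.11 to 9.22, 105 to 176, 106 to 132, 374 to 619, 76.7 to 100.3 and 4.16 to 9.53 CPM, so it lay outside their range for all 6 members. In this library 3 counts are 0.205 CPM. Its striatal marker sum was 189 CPM, under that of any NAcc library kept, and its oligodendrocyte sum was 23424.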

How the results depend on the processing

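The counts of calls were computed under other tests, scalings, filters, runs and library sets, and the effect of each choice was read on the counts and on single values. Of the counts, 216 stayed within 1.5 times the reported value and 12 did not; of the single values (B6 and PWK against Low_Average and the regions), 628 kept direction and call, 34 lost the call and 5 turned. Grm2 in B6 in the PrL was a unique DEG in every setting (-0.68 to -0.48 against Low_Average). Unique DEGs among the members, 1 as reported, were 2 with DESeq2 (adding Grm5 in AJ in the CeA), 3 with sample quality weights (adding Grm4 too) and 6 with marker sums as covariates. Strain contrasts called in the NAcc, 31 as reported, were 15 with the 144 libraries, 79 with quality weights and 75 with covariates, and in the CeA, 17 as reported, they were 41 with weights and 27 with covariates. The interaction, 4 as reported, was called for 2 members with 144 libraries and for 2 without the libraries that stood apart, and the highest count in any setting was 6. PWK against Low_Average, 2 as reported, gave 4 with weights and 5 with covariates. The 5 that turned did so with covariates: Grm7 in B6 in the CeA (0.0215), Grm4 between PrL and NAcc (0.39) and PrL and CeA (0.61), Grm5 between CeA and NAcc (0.0351) and Grm8 between PrL and CeA (-0.16). The value of Grm4 between PrL and NAcc rests on extrapolation, because pallial sums of these regions did not overlap. Some strain contrasts of Grm3 and Grm4, not counted here, turned with covariates as well. The cause was not tested.

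Leaving out each of the 5 B6 mice of the NAcc in turn gave 21 (without mouse 17) to 35 (without mouse 25) strain contrasts in the NAcc, 3 (without mouse 9, 17 or 33) to 4 interactions, 11 to 12 overall strain tests and 45 to 53 pathway calls in B6, with Grm3 in B6 in the NAcc at 0.46 to 0.67. Groups of 6 were not treated so. With the mouse as a replicate block (correlation 0.0476), 16 region contrasts and 4 interactions were called, and no call changed. Levels were low for Grm2 and Grm8 in the NAcc (medians of 8.79 and 12.0 CPM), and lower still for the pathway gene Naalad2.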
